A study of Mus musculus with 6 samples.

Results

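Genes of glycolysis and of the transcriptional response to low oxygen were examined in sorted mouse haematopoietic stem cells that could be induced to express ETV6-RUNX1, a chimeric transcription factor best known from acute lymphoblastic leukaemia of childhood. The set is defined by gene symbol. Its 35 symbols matched 36 gene IDs of the 55471 in the expression table, because Aldoa has a second ID. The libraries came from cells sorted as Lin- Kit+ Sca1+ CD48- CD150+, all of the genotype ETV6-RUNX1. The uninduced group (n = 3) carries no treatment label, and the induced group (n = 3) came from mice given doxycycline in food for 2 weeks. The promoter that drives the transgene, the age of the mice, and whether each library is 1 mouse or a pool are not given in the sources used here. Doxycycline-fed mice lacking the fusion were not analysed here, so the fusion and the drug cannot be told apart. P-values measure the spread between these libraries, which may be partly technical.

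Glycolysis splits glucose into pyruvate in the cytosol. Hexokinase traps glucose in the cell, the preparatory enzymes spend ATP to make triose phosphates, and the payoff enzymes recover ATP from them. Pyruvate then becomes lactate through lactate dehydrogenase or enters mitochondria through pyruvate dehydrogenase, which the pyruvate dehydrogenase kinases switch off. Many of these genes are targets of hypoxia-inducible factors, whose alpha subunits (Hif1a and Epas1) are hydroxylated by the Egln enzymes when oxygen is present and then marked for destruction by Vhl. Haematopoietic stem cells in bone marrow are known for a reliance on glycolysis and for a low oxygen surrounding.

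RNA abundance was given as TPM, which divides reads by transcript length and scales every library to the same total, so levels of different genes can be compared but sequencing depth is unknown. Nuclear protein-coding genes held 26.6 to 32.9% of TPM in uninduced libraries and 20.5 to 23.2% in induced libraries. Over the 13470 tested genes, the median log2 change was -0.35 on the deposited scale and 0.00 after median-of-ratios scaling, which sets the typical gene to no change. Results are therefore given on the deposited scale, with the rescaled value where the call differs. The sorting markers were checked in each library. Kit (142 to 232 TPM uninduced, 91.6 to 103 TPM induced), Ly6a, which encodes Sca-1 (12.1 to 16.4 and 30.6 to 42.8 TPM), and Slamf1, which encodes CD150 (10.6 to 15.5 and 5.31 to 11.3 TPM), were present in every library, while Cd48 did not exceed 3.02 TPM.

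Of the 36 IDs, 33 reached a mean of 1 TPM and were tested. The second Aldoa ID, Slc16a3 and Pdk4 were below it. On the deposited scale 7 of the 33 fell in induced cells (Hk2, Slc16a1, Vegfa, Tpi1, Ldha, Pgk1 and Gpi1), or 21.2%, where 10.2% of all tested genes were lower, and none rose, where 1.29% of all tested genes were higher (limma, adjusted p under 0.05). The median change of the 33 was -0.44 against -0.35 over all genes, with 28 negative and 5 positive. The induced libraries lay entirely below the uninduced in 14 (42.4%), where the share over all genes was 28.2%, and entirely above in 1, Aldoa, where that share was 4.83%. After median-of-ratios scaling, 2 of the 33 remained lower (Hk2 and Slc16a1), where 3.1% of all genes were lower, and 2 were higher (Slc2a3 and Aldoa), where 2.88% of all genes were higher, with a median change of -0.04. On that scale the induced libraries lay entirely below in 8 (14.3% of all genes) and entirely above in 4, Aldoa, Slc2a3, Pfkfb3 and Pkm (13.6% of all genes). For single genes, overlap is given on the deposited scale. At an unadjusted p under 0.05 the deposited scale gave 12 lower and 0 higher. The share of all tested genes at that unadjusted threshold was not counted, so these numbers have no background beside them. On the deposited scale 72.5% of all tested genes had a negative change. The genes called lower on both scales were thus 1 hexokinase and 1 lactate carrier.

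**Figure D1:**
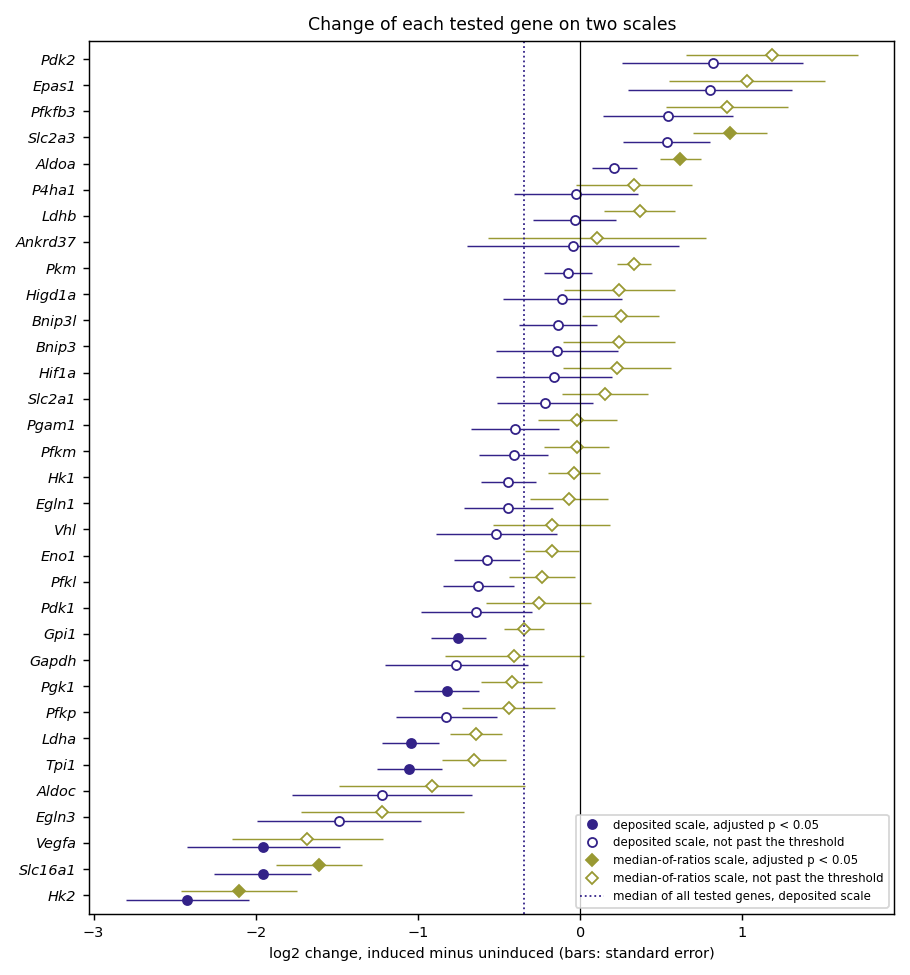
Log2 change of the 33 tested genes, induced minus uninduced, with standard errors as bars, on the deposited scale (circles) and after median-of-ratios scaling (diamonds); filled symbols have an adjusted p under 0.05 and the dotted line is the median of all tested genes on the deposited scale. Hk2, Slc16a1 and Vegfa lie farthest to the left on both scales, and only Hk2 and Slc16a1 are filled on both.

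The promoter windows of 4 genes that fell are shown because they carry the letters through which hypoxia-inducible factors bind DNA. Each run is the 250 bases before the RefSeq start in GRCm38.p6, read 5′ to 3′ on the gene's strand. Capitals mark the core ACGTG or GCGTG, or their reverse complements CACGT and CACGC, and CACGTG where ACGTG overlaps its own reverse complement.
Hk2, chr6:82774455-82774704, minus strand: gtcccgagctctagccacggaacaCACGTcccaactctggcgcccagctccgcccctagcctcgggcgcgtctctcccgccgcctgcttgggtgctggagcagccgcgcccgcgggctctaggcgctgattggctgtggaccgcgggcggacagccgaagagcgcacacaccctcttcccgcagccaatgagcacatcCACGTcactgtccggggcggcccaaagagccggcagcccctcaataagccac
Slc16a1, chr3:104638414-104638663, plus strand: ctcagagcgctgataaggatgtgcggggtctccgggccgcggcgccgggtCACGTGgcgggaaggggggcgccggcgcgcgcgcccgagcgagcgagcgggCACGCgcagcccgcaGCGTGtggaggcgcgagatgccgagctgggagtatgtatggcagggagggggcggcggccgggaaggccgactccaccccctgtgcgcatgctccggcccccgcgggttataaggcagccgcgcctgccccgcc
Ldha, chr7:46845554-46845803, plus strand: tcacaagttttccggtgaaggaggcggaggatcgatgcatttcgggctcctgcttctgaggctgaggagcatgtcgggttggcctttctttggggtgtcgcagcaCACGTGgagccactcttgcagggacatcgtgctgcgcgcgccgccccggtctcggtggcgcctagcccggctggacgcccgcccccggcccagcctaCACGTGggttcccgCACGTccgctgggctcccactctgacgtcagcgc
Pgk1, chrX:106186850-106187099, plus strand: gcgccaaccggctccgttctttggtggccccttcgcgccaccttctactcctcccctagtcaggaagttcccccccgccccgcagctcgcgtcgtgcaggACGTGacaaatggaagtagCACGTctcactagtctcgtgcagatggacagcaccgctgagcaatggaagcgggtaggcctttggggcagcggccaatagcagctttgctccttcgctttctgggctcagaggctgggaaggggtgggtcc
The Ldha window holds CACGTG in 2 places and the Slc16a1 window in 1, while the Hk2 and Pgk1 windows each hold 2 single cores. RefSeq windows, from 250 bases before to 50 after each start, were matched for 32 of the 35 symbols (47 windows). Epas1, Slc2a3 and Bnip3l had no window. ACGTG or GCGTG on either strand was found in 37 of the 47 windows (78.7%) and in 43.8% of all 32851 windows of that length. For ACGTG the shares were 55.3 and 19.6%, and for GCGTG 55.3 and 32.4%. CACGTG was in 14.9% of these windows and in 7.15% of all windows. The median GC content was 62.7% in these windows and 52.7% in all windows, and its part in the shares was not tested. Over all 7 genes that fell, 6 of 9 windows held a core (66.7%), and the 4 windows shown were picked because they hold one. Tpi1 and Gpi1 had no core in their single windows, and Vegfa held cores in 1 of 2. That Vegfa window and a second Ldha window with a core are not shown. Hif1a itself, Slc2a1 and Bnip3, none of which passed the test, also had cores.

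Among the carriers, Slc16a1, which moves lactate and pyruvate across the plasma membrane (MCT1, ENSMUSG00000032902, chr3:104638668-104658462), stood at 13.4, 16.3 and 11 TPM in uninduced libraries 1 to 3 and at 2.70, 2.45 and 2.99 TPM in induced libraries 1 to 3. Every induced library lay well below every uninduced one, and the induced mean was 20.0% of the uninduced. The log2 change was -1.96 (SE 0.30, limma adjusted p = 0.00476), and -1.61 after median-of-ratios scaling (adjusted p = 0.0124). The call held when any 1 library was left out on the deposited scale, and on the rescaled values it was lost without uninduced library 2 (adjusted p = 0.053). Slc16a3, the lactate exporter typical of glycolytic tissue, ranged only from 0.22 to 1.49 TPM over the 6 libraries and was not tested.

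Glucose enters through Slc2a1 and Slc2a3, the transporters GLUT1 and GLUT3. Slc2a1 lay at 7.94 to 14.5 TPM in uninduced and 8.19 to 9.49 TPM in induced libraries, so the groups overlapped (log2 change -0.22, SE 0.30, limma adjusted p = 0.674), and its sign turned to 0.15 after median-of-ratios scaling. Slc2a3 (ENSMUSG00000003153, chr6:122727809-122801640), a high-affinity transporter, was at 24.3, 21.2 and 17.4 TPM in uninduced and 33.8, 21.2 and 39.5 TPM in induced libraries. Induced libraries 1 and 3 were above all uninduced ones and induced library 2 was not. The change on the deposited scale was 0.53 in log2 units (SE 0.27, limma adjusted p = 0.228). The gene was called higher only after rescaling, at 0.92 (adjusted p = 0.0491). That call was kept without induced library 2 (adjusted p = 0.0475) and lost without any of the others (adjusted p 0.0821 to 0.157).

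Hexokinase, the first enzyme of the pathway, showed the most marked change in make-up. Hk2, the inducible form that binds the mitochondrial outer membrane (ENSMUSG00000000628, chr6:82725025-82774454), was at 10.0, 19.2 and 11.4 TPM in uninduced and 2.45, 0.89 and 1.75 TPM in induced libraries. The highest induced library was thus far below the lowest uninduced one, and the induced mean was 12.5% of the uninduced. The log2 change was -2.42 (SE 0.38, limma adjusted p = 0.00491), and -2.10 after median-of-ratios scaling (adjusted p = 0.0134). Leaving out any 1 library kept the call on the deposited scale. On the rescaled values it was lost without uninduced library 2 (adjusted p = 0.0582) or 3 (adjusted p = 0.0581), or induced library 2 (adjusted p = 0.0516) or 3 (adjusted p = 0.0545).

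Hk1, the housekeeping form, remained the most abundant hexokinase, at 73.9, 87.1 and 80.9 TPM in uninduced and 54.8, 64.8 and 57.6 TPM in induced libraries. Its groups did not overlap, yet the log2 change of -0.44 did not pass the test (SE 0.17, limma adjusted p = 0.118). After rescaling the change was -0.04 and the groups overlapped. Hk3, a hexokinase of myeloid cells that is not a member of the set, went the other way, from 8.20, 5.99 and 9.11 TPM to 25.4, 25.3 and 24.8 TPM. It rose by 1.60 on the log2 scale (SE 0.25, limma adjusted p = 0.0049), and the call held under all 27 alternatives. As shares of the summed hexokinases, Hk2 was 10.9, 17.1 and 11.3% in uninduced and 2.96, 0.98 and 2.08% in induced libraries, whereas Hk3 was 8.90, 5.34 and 8.98% and then 30.7, 27.8 and 29.5%. Summed hexokinase was 92.1 to 112 TPM in uninduced and 82.7 to 91.1 TPM in induced libraries, a far smaller fold difference than either isoenzyme showed.

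**Figure D2:**
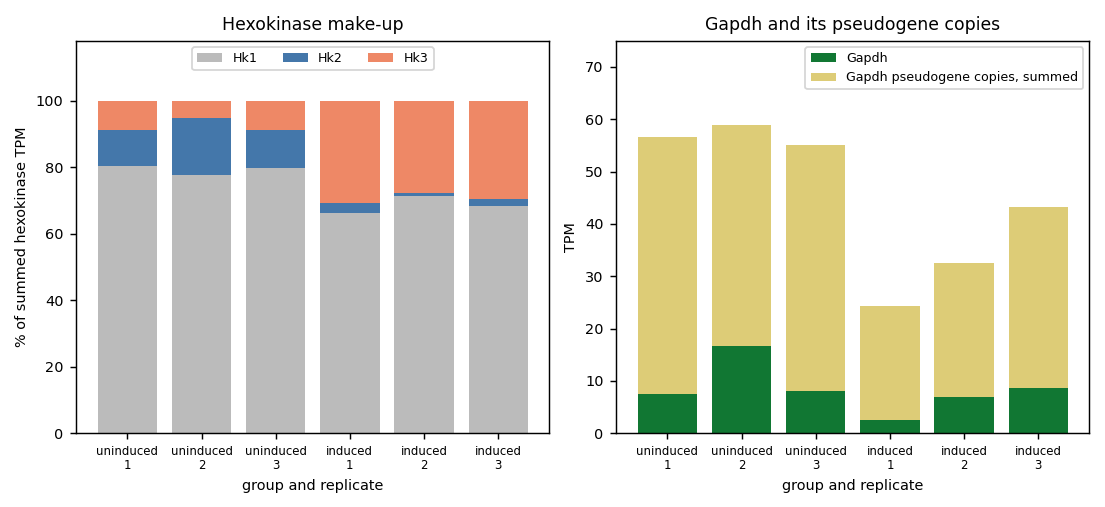
Left, share of summed hexokinase TPM held by Hk1, Hk2 and Hk3 in each library; right, TPM of Gapdh and of its pseudogene copies, stacked, in each library. Hk2 takes at least 10.9% in uninduced and at most 2.96% in induced libraries, while Hk3 takes at most 8.98% and at least 27.8%; most of the Gapdh signal is listed under pseudogene copies in every library.

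Of the other preparatory enzymes, glucose-6-phosphate isomerase (Gpi1, ENSMUSG00000036427, chr7:34201330-34230336) was at 139, 133 and 115 TPM in uninduced and 77.8, 66.9 and 84.6 TPM in induced libraries. Triosephosphate isomerase (Tpi1, ENSMUSG00000023456, chr6:124810586-124814296) was at 52.7, 71.3 and 63.4 TPM and then at 30.2, 32.6 and 25.7 TPM. Neither gene's groups overlapped. Gpi1 fell by 0.75 on the log2 scale (SE 0.17, limma adjusted p = 0.0202) and Tpi1 by 1.05 (SE 0.20, limma adjusted p = 0.0108). After median-of-ratios scaling neither was called, at -0.35 for Gpi1 (adjusted p = 0.146) and -0.65 for Tpi1 (adjusted p = 0.0926). Tpi1 was called with any 1 library left out on the deposited scale, whereas Gpi1 was lost without uninduced library 1 (adjusted p = 0.068) or 2 (adjusted p = 0.0604), or induced library 1 (adjusted p = 0.0635) or 2 (adjusted p = 0.0833).

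Phosphofructokinase, the committed step, is built from the subunits Pfkl, Pfkm and Pfkp. Each had non-overlapping groups on the deposited scale, with Pfkl at 33.7 to 43.8 TPM and then 20.9 to 30.5 TPM, Pfkm at 24.3 to 27.7 and then 17.3 to 22.3 TPM, and Pfkp at 22.4 to 26.1 and then 9.71 to 22.2 TPM. None passed the test (log2 changes of -0.63, -0.41 and -0.83, limma adjusted p = 0.0939, 0.247 and 0.116), although Pfkp was called when induced library 3 was left out (adjusted p = 0.0365). After median-of-ratios scaling the groups of each subunit overlapped. The changes were then -0.23, -0.02 and -0.44 (limma adjusted p = 0.562, 0.969 and 0.423). Pfkfb3, which makes the activator fructose 2,6-bisphosphate, was at 7.28 to 9.23 TPM in uninduced libraries, at 9.17 and 7.66 TPM in induced libraries 1 and 2 and at 24.4 TPM in induced library 3. On the deposited scale its positive change of 0.54 (SE 0.40, limma adjusted p = 0.413) was 0.06 without that library. After median-of-ratios scaling it was 0.91 (adjusted p = 0.203), and 0.47 without that library.

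Aldolase A (Aldoa, ENSMUSG00000030695, chr7:126795234-126800751), which splits fructose 1,6-bisphosphate, was the one tested member whose induced libraries all lay above the uninduced ones on the deposited scale. It stood at 206, 180 and 176 TPM in uninduced and 219, 219 and 213 TPM in induced libraries, a narrow gap. The log2 change of 0.21 did not pass the test on the deposited scale (SE 0.14, limma adjusted p = 0.358). After median-of-ratios scaling it was 0.62 (adjusted p = 0.0239), a call kept without uninduced library 1 (adjusted p = 0.0465) and lost without any of the others (adjusted p 0.058 to 0.0931). Aldoc, the brain-type aldolase, was far lower, at 2.70 to 11.7 TPM and then 0.94 to 4.95 TPM, with overlapping groups.

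Among the payoff enzymes, phosphoglycerate kinase (Pgk1, ENSMUSG00000062070, chrX:106187100-106203699) was at 65.1, 51.6 and 61.5 TPM in uninduced and 34.8, 27.2 and 37.9 TPM in induced libraries. All induced libraries lay below all uninduced ones. It fell by 0.82 on the log2 scale (SE 0.20, limma adjusted p = 0.0295) and was not called after rescaling, at -0.42 (adjusted p = 0.23). On the deposited scale the call was kept without uninduced library 2 (adjusted p = 0.0493) and lost without uninduced library 1 (adjusted p = 0.0935) or 3 (adjusted p = 0.0666), or induced library 1 (adjusted p = 0.0761), 2 (adjusted p = 0.109) or 3 (adjusted p = 0.0516). Enolase (Eno1) was at 55.1 to 78.5 TPM and then 36.1 to 46.5 TPM, without overlap (log2 change -0.57, SE 0.20, limma adjusted p = 0.0998). After median-of-ratios scaling the Eno1 groups overlapped, with a change of -0.17 (limma adjusted p = 0.605). Phosphoglycerate mutase (Pgam1) overlapped between groups, at 17.5 to 20.4 TPM and then 10.9 to 20.4 TPM. Pyruvate kinase (Pkm), the last step and one of the highest members, was at 193 to 242 TPM and then 192 to 221 TPM. Its log2 change of -0.08 (SE 0.15, limma adjusted p = 0.781) became 0.33 after median-of-ratios scaling (adjusted p = 0.101).

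Glyceraldehyde-3-phosphate dehydrogenase (Gapdh), usually among the most abundant transcripts of a cell, was listed at only 7.45, 16.7 and 8 TPM in uninduced and 2.61, 6.86 and 8.68 TPM in induced libraries. The annotation holds 182 Gapdh pseudogenes that match its transcripts at 90% identity or more over at least 300 bases. These took 81.2% of the TPM of Gapdh and its copies in uninduced and 81.9% in induced libraries, so the row of the gene itself cannot be read as its level. A further 9 genes matched but are not annotated as pseudogenes, and these were not added. With the pseudogene copies added, the sums were 56.6, 59.0 and 55.1 TPM in uninduced and 24.4, 32.6 and 43.2 TPM in induced libraries. These groups did not overlap, and the induced mean was 58.7% of the uninduced (33.4 ± 9.43 against 56.9 ± 1.98 TPM, SD, n = 3 each). The log2 change of the sum was -0.79 (limma adjusted p = 0.0509), and -0.39 after median-of-ratios scaling (adjusted p = 0.319).

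Copies mattered less for most other members, though not for all. A single pseudogene, Bnip3l-ps, matched Bnip3l at 99.6% identity and took 55.5% of their joint TPM in uninduced and 49.9% in induced libraries. The pseudogene copies of Tpi1 took 17 and 13.2% of the TPM of gene and copies, those of Eno1 13.0 and 9.32%, those of Ldha 9 and 7.64%, and those of Pkm 8.40 and 9.86%. Matching genes not annotated as pseudogenes, such as Eno1b for Eno1, were left out of these shares. Adding all copies to their genes left 7 members lower on the deposited scale. After median-of-ratios scaling it called Ldha lower as well (log2 change -0.66, limma adjusted p = 0.0418).

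Summed over the 16 enzymes that carry out the steps from hexokinase to lactate dehydrogenase, without pseudogene copies and so with Gapdh as its own row, the members gave 1162 ± 58.7 TPM in uninduced and 880 ± 60.8 TPM in induced libraries (SD, n = 3 each), or 75.7%. As a share of nuclear protein-coding TPM, the same sum was 0.392 ± 0.0240% and 0.401 ± 0.00669%, or 102%. The reduction of the sum was therefore no larger than that of protein-coding RNA as a whole in these libraries. Within the sum the balance shifted, with Aldoa and Pkm together taking 33.2 to 36.5% in uninduced and 46.5 to 50.7% in induced libraries.

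**Figure D3:**
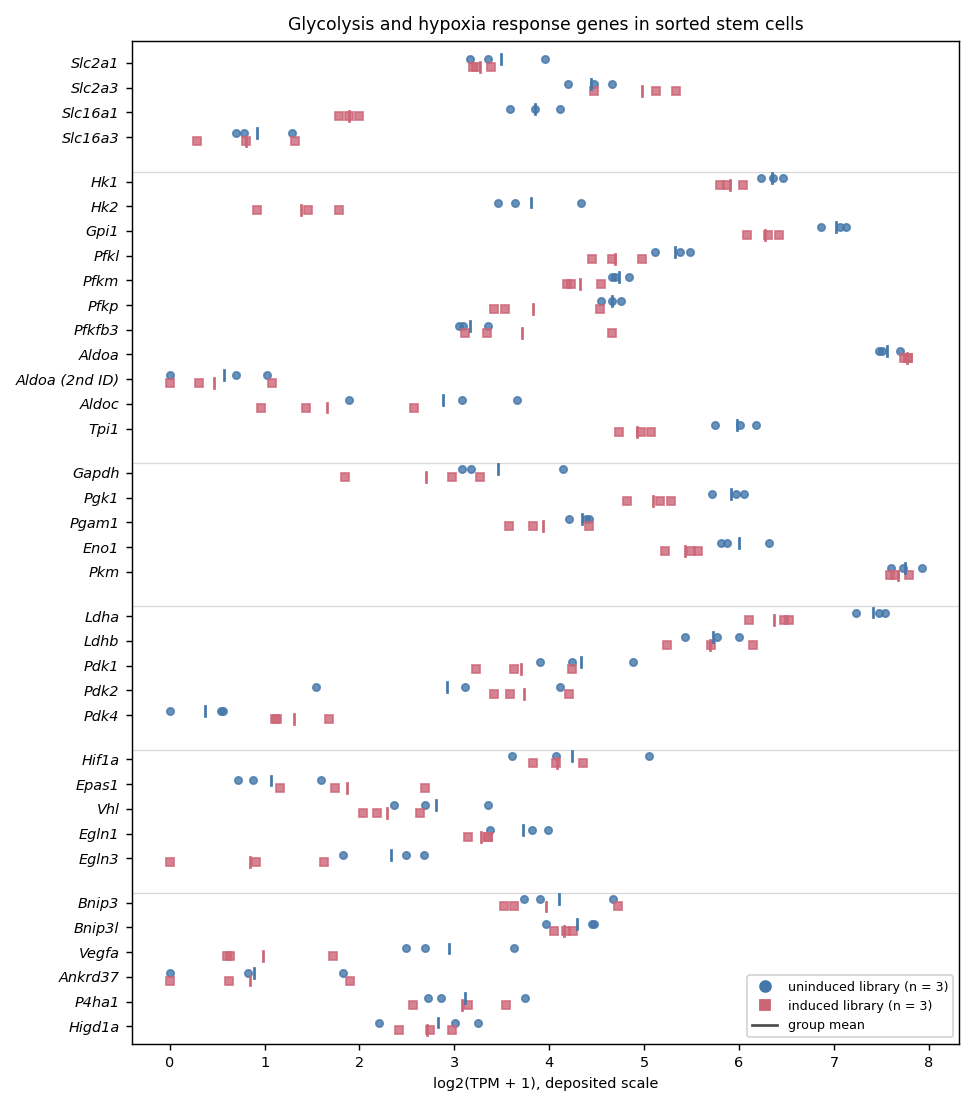
Level of each of the 36 gene IDs in each library, as log2(TPM + 1) on the deposited scale, in the order of carriers, preparatory enzymes, payoff enzymes, lactate dehydrogenase and pyruvate dehydrogenase kinases, oxygen control and other hypoxia targets; circles are uninduced and squares induced libraries, and short lines are group means. Hk2, Slc16a1, Ldha, Tpi1, Gpi1, Pgk1 and Vegfa show induced libraries to the left without overlap, while Aldoa shows them slightly to the right.

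Lactate dehydrogenase is a tetramer of Ldha, which favours making lactate, and Ldhb, which favours using it. Ldha (ENSMUSG00000063229, chr7:46841475-46855627) was at 149, 177 and 185 TPM in uninduced and 91.1, 67.6 and 88.1 TPM in induced libraries. The groups were well apart, and the induced mean was 48.3% of the uninduced. Ldha fell by 1.05 on the log2 scale (SE 0.18, limma adjusted p = 0.00639), a call that held with any 1 library left out on that scale. After median-of-ratios scaling the change was -0.64 and just missed the threshold (adjusted p = 0.0524). Ldhb was at 42.0 to 62.9 TPM and then 36.8 to 69.7 TPM, with full overlap (log2 change -0.03, SE 0.26, limma adjusted p = 0.946, and 0.37 after rescaling, adjusted p = 0.378). The ratio of Ldhb to Ldha within a library was 0.358, 0.356 and 0.227 in uninduced and 0.765, 0.544 and 0.579 in induced libraries.

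The kinases that hold back pyruvate dehydrogenase showed no called change. Pdk1, the form that responds to hypoxia, was at 13.9 to 28.5 TPM and then 8.37 to 17.9 TPM (log2 change -0.64, SE 0.34, limma adjusted p = 0.256). Pdk2 spread from 1.91 to 16.3 TPM among uninduced libraries alone and from 9.71 to 17.5 TPM among induced ones (log2 change 0.82, SE 0.56, limma adjusted p = 0.379). Pdk4, a kinase tied to the use of fat as fuel, was near the bottom of the scale at 0 to 0.48 TPM in uninduced and 1.16 to 2.21 TPM in induced libraries. Its groups did not overlap, but its mean was below the filter and it was not tested.

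A ratio of related genes within a library does not depend on scaling between libraries, and 10 of 11 such pairs could be compared. Egln3 to Egln1 was left out because Egln3 was listed at 0 in induced library 3. The groups were apart for 3 pairs and overlapped for 7. The mean ratio (geometric, as below) of Hk2 to Hk1 went from 0.162 to 0.0266, that of Ldhb to Ldha from 0.307 to 0.622, and that of Pdk1 to Pdk2 from 3.10 to 0.969. The last rested partly on uninduced library 3, without which the difference in the Pdk1/Pdk2 log2 ratio went from -1.68 to -1.06. For each of the 3 pairs the two-sided exact permutation test gave p = 0.1, which is the lowest value possible with 3 libraries a group, and 0.333 after Benjamini-Hochberg adjustment over the 10 pairs. The ratios of phosphofructokinase subunits overlapped, with Pfkp to Pfkl at 0.511 to 0.775 and then 0.437 to 0.727.

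**Figure D4:**
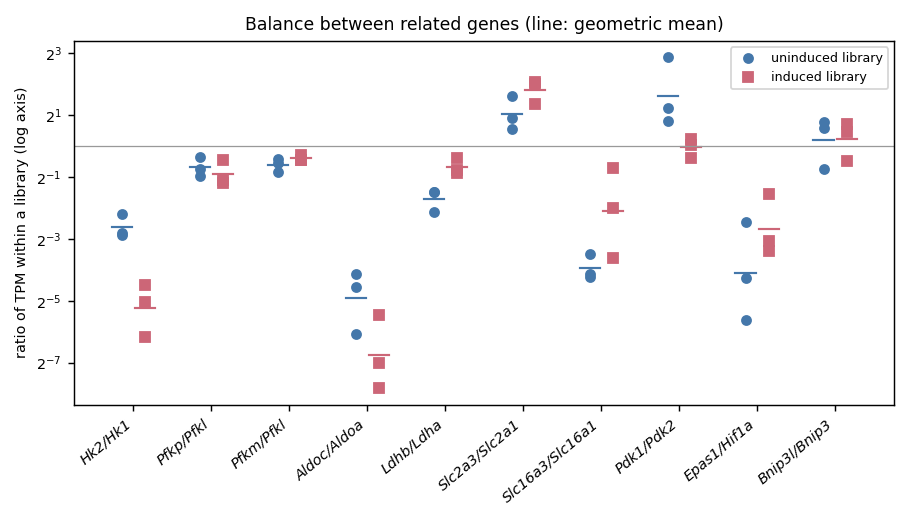
Ratio of TPM between related genes within each library, on a log axis; circles are uninduced and squares induced libraries, and short lines are geometric means. The circles and squares are apart for Hk2/Hk1, Ldhb/Ldha and Pdk1/Pdk2 and overlap for the other 7 pairs.

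The 5 genes of oxygen sensing itself did not pass the limma test, and at an unadjusted p under 0.05 the counts were 1 lower and 0 higher. Hif1a, the factor behind most of the glycolytic response, was at 11.2, 32.0 and 15.9 TPM in uninduced and 19.4, 13.2 and 15.8 TPM in induced libraries, with uninduced library 2 far above the rest (log2 change -0.16, SE 0.36, limma adjusted p = 0.807). Its sign turned to 0.22 after median-of-ratios scaling. Epas1, which encodes HIF-2 alpha, was low, at 0.64 to 2.03 TPM and then 1.24 to 5.44 TPM (log2 change 0.80, SE 0.51, limma adjusted p = 0.339). Vhl, the substrate receptor of the ligase that destroys the alpha subunits, was at 4.14 to 9.24 TPM and then 3.11 to 5.24 TPM, with overlap. The prolyl hydroxylase genes Egln1 and Egln3 had induced libraries below all uninduced ones, at 9.36 to 14.9 and then 7.82 to 9.23 TPM for Egln1, and at 2.55 to 5.40 and then 0 to 2.08 TPM for Egln3. Neither was called (log2 changes of -0.44 and -1.49, limma adjusted p = 0.327 and 0.0864). After median-of-ratios scaling the changes were -0.07 and -1.22 (limma adjusted p = 0.903 and 0.201). On that scale the groups of Egln1 overlapped and those of Egln3 did not. HIF proteins are controlled mainly by their stability, which RNA does not measure.

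Of the remaining hypoxia targets, the one called was Vegfa, a secreted growth factor for blood vessels (ENSMUSG00000023951, chr17:46016993-46032369). It was at 11.4, 4.61 and 5.46 TPM in uninduced and 0.52, 0.55 and 2.29 TPM in induced libraries. Uninduced library 1 was the highest and induced library 3 the nearest to the other group, without overlap. Vegfa fell by 1.95 on the log2 scale (SE 0.47, limma adjusted p = 0.028), and was not called after median-of-ratios scaling (-1.68, adjusted p = 0.0713). On the deposited scale the call was kept without induced library 3 (adjusted p = 0.0339) and lost without uninduced library 1 (adjusted p = 0.0985), 2 (adjusted p = 0.0598) or 3 (adjusted p = 0.0578), or induced library 1 (adjusted p = 0.0948) or 2 (adjusted p = 0.108).

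The other 5 targets overlapped between groups and had log2 changes between -0.14 and -0.03 on the deposited scale, each turning positive after median-of-ratios scaling. Bnip3 and Bnip3l, mitochondrial receptors for the removal of mitochondria by autophagy, were at 12.3 to 24.5 and then 10.5 to 25.5 TPM, and at 14.6 to 21.2 and then 15.5 to 18.0 TPM. P4ha1, a subunit of the collagen prolyl hydroxylase, was at 5.61 to 12.4 and then 4.89 to 10.7 TPM. Higd1a, a mitochondrial protein induced by hypoxia, was at 3.62 to 8.53 and then 4.35 to 6.87 TPM. With its pseudogene copy added, Bnip3l had a change of -0.33 on the deposited scale in place of -0.14. Ankrd37 was listed at 0 in 1 library of each group and did not exceed 2.74 TPM. On the rescaled values 1 of the 6 targets, Vegfa, had a negative change and 5 had a positive one.

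Other genes of these pathways, in 5 lists, numbered 89, of which 67 were tested. On the deposited scale 6 fell and 2 rose, with a median change of -0.28, and after median-of-ratios scaling 1 was lower and 2 higher, with a median of 0.04. Against the shares over all genes given above, 8.96% lower on the deposited scale is near the background. Among 27 tested hypoxia targets 3 fell and 1 rose, and among 12 glycolytic isoenzymes and regulators 1 was called, Hk3. Of 8 pentose phosphate genes 2 fell, and of 10 genes of pyruvate entry into mitochondria 1 fell. None of 10 HIF partners and oxygen-sensing genes was called in either direction by limma, and at an unadjusted p under 0.05 the counts were 1 lower and 0 higher.

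Mif, a cytokine known as a hypoxia target, fell from 144, 177 and 115 TPM to 35.3, 33.3 and 34.0 TPM (log2 change -2.03, SE 0.19, limma adjusted p = 0.000564), and was called under all 27 alternatives. Bhlhe40, a transcriptional repressor induced by hypoxia, went the opposite way, from 10.3, 12.2 and 5.28 TPM to 32.6, 22.2 and 27.1 TPM (log2 change 1.52, SE 0.32, limma adjusted p = 0.016). Its call was lost on the deposited scale without induced library 1 (adjusted p = 0.0726), 2 (adjusted p = 0.0501) or 3 (adjusted p = 0.0606), and kept in all 6 such fits after rescaling. These targets thus moved in opposite directions.

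The remaining 5 genes fell on the deposited scale alone. Pdhb, the beta subunit of the first pyruvate dehydrogenase component, went from 31.9 to 48.7 TPM to 8.52 to 19.9 TPM (log2 change -1.43). Pygl, a glycogen phosphorylase, and Fam162a, a mitochondrial protein induced by hypoxia, had log2 changes of -1.08 and -1.06. Tkt and Rpia, enzymes of the non-oxidative pentose phosphate branch, had log2 changes of -0.80 and -0.84. With 1 library left out on the deposited scale, the number of these pathway genes called lower was 2 without uninduced library 1, 1 without uninduced library 2, 2 without induced library 1, 1 without induced library 2 and 3 without induced library 3, against 6 with all libraries.

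Markers of cell state moved with the groups. Of 9 tested genes of dividing cells 8 fell, 7 of them also called after rescaling, and the summed level of the 10 listed was 188 to 207 TPM in uninduced and 24.5 to 35.4 TPM in induced libraries (Top2a, 57.0 to 69.2 and then 5.42 to 10.5 TPM). Of 9 tested erythroid genes 7 rose on both scales, and the 12 listed summed to 57.2 to 62.9 TPM and then 419 to 482 TPM. Epor, the erythropoietin receptor, went the other way without passing the test, from 2.10 to 4.57 TPM to 0 to 1.45 TPM (log2 change -1.65, limma adjusted p = 0.0638). The beta-globin Hbb-bs, whose reads may be split with its near-identical copy Hbb-bt, went from 9.48 to 23.4 TPM to 153 to 196 TPM, while Car1 was at 0 in all but 1 induced library. The part of these cells or states in the lower Hk2, Slc16a1 and Ldha was not tested. In such bulk samples fewer cells of a type and less RNA per cell cannot be told apart.

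The sums of the other marker lists differed less. Megakaryocyte genes summed to 102 to 135 TPM in uninduced and 119 to 129 TPM in induced libraries (of 5 tested, Gp9 fell, with a log2 change of -2.33, and Pf4 and Ppbp rose, with log2 changes of 1.13 and 3.22), and myeloid genes to 235 to 286 and then 234 to 285 TPM (of 6 tested, 1 rose, Prtn3). At an unadjusted p under 0.05 the 6 myeloid genes gave 3 lower and 2 higher, and Mpo, Elane and S100a9 had log2 changes of -1.10, -1.15 and -0.68 that did not pass the test (limma adjusted p = 0.173, 0.155 and 0.0916). After median-of-ratios scaling the lower megakaryocyte gene, Gp9, was no longer called (limma adjusted p = 0.0623), and a second myeloid gene, Lyz2, was higher (log2 change 0.85, limma adjusted p = 0.013). Lymphoid genes summed to 10.4 to 26.6 and then 3.50 to 4.33 TPM, with 7 of 11 at 0 in every library, Cd3e included, and 1 of 2 tested fell on both scales, Nkg7, from 5.84 to 15.8 TPM to 0 in every induced library. Stromal and endothelial genes summed to 15 to 28.7 and then 29.2 to 39.6 TPM, with Col1a1 and Lepr at 0 in every library and none of 3 tested called by limma on the deposited scale (0 lower and 1 higher at an unadjusted p under 0.05). After median-of-ratios scaling 1 of these, Pecam1, was higher (log2 change 1.2, limma adjusted p = 0.032). Pecam1 alone made up most of the sum in every library, at 13.7 to 23.5 and then 28.5 to 37.9 TPM. Kdr and Col1a2, also tested, had negative log2 changes of -0.46 and -1.09 on the deposited scale (limma adjusted p = 0.537 and 0.23).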

How the data were processed

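RNA of sorted haematopoietic stem cells was measured by stranded total RNA sequencing in 6 libraries, 3 uninduced and 3 induced, grouped by library title. Values were TPM as the authors deposited them, in 1 table for the series. The submitters' processing notes name bcl2fastq, HISAT2, StringTie, DESeq2 and the build GRCm38, and give them no role here. A column of GC percent for every gene, per the file headers, served only for a GC correction. TPM keeps no depth, so no counting interval can be given, and the precision rests on the spread between libraries.

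Of 60496 rows, 5025 repeated a gene ID and were summed, giving 55471 IDs. The 13470 genes whose mean reached 1 TPM entered a limma fit (3.58.1, R 4.3.3) of log2(TPM + 1) with a variance trend, two-sided, with Benjamini-Hochberg adjustment over all of them and a threshold of 0.05. Fold changes on this scale understate those of low genes. Median-of-ratios size factors were 0.825 to 1.27. Ratios within libraries were compared by exact permutation. Copies were found by aligning GENCODE transcripts of GRCm38 with blastn 2.17.0, at 90% identity over 300 bases. Only copies annotated as pseudogenes were summed. Gene coordinates are from that annotation, and promoter windows and their sequences from RefSeq on GRCm38.p6.

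On simulated data with 200 of 13470 genes changed, limma recovered 91% of genes changed by 2 log2 units and 29% of those changed by 1, with 6 false calls among 126. The changed genes were drawn only from genes above a set level, so the recovery rates do not cover low genes such as Vegfa, Egln3 and Epas1. The simulated noise was normal, and no shift shared by all genes was simulated. The members and lists were chosen with earlier results of these data known. Every member could be named. From the other pathway lists, genes past the threshold on either scale were named. Marker lists were given by counts and sums with up to 3 genes by level. Apart from these, the genes that define the sort, markers at 0 or called, and markers that went the other way were named. Those were chosen after their values were seen. The alternatives were a replicate block, each library left out, array weights, other pseudocounts, expression filters and scalings, a GC correction, and a fit lacking the variance trend. Those added after seeing the data were the rescaled fits with a block, with a library left out or with pseudogene copies, and the copies added on the deposited scale.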

Additional observations from a re-analysis of the deposited data

How the results depend on the processing

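Of 27 alternatives, 18 were planned and 9 were added after seeing the data. The number of genes past the threshold was 1549, and 752 with no expression filter, 806 after median-of-ratios scaling, 814 after quantile normalization, 944 rescaled to nuclear protein-coding genes, 767 without a variance trend, 829 with the GC correction and 807 with median-of-ratios scaling and copies added. It was 291 to 1198 with a library left out, the lowest value being from a rescaled fit. The members called lower numbered 7, and 2 after median-of-ratios scaling, 2 after quantile normalization, 4 rescaled to nuclear protein-coding genes, 3 without a variance trend, 3 with the GC correction, 3 with median-of-ratios scaling and copies added, and 0 to 7 with a library left out. The members called higher numbered 0, and 2, 2, 3, 0, 1 and 2 under the same settings in turn, and 0 to 1 with a library left out. Other pathway genes called lower numbered 6, then 2 with no filter, 1 under each of those 6 settings, and 1 to 6 with a library left out. Those called higher numbered 2, then 1 with no filter, 4 rescaled to nuclear protein-coding genes, and 1 to 2 with a library left out. The median log2 change of the members was -0.44, and -0.040 after median-of-ratios scaling, -0.057 after quantile normalization, -0.011 rescaled to nuclear protein-coding genes, -0.11 with the GC correction, -0.052 with median-of-ratios scaling and copies added, and -0.48 to 0.031 with a library left out. The log2 change of the summed glycolytic enzymes was -0.40, and 0.034 as a share of nuclear protein-coding TPM. Rescaled fits divide out the shift of the typical gene, and the cause of the other differences was not tested.

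The libraries share replicate numbers, but deviations of same-numbered libraries correlated at 0.021, -0.015 and 0.017, so the numbers were not treated as pairs. With a replicate block the genes past the threshold numbered 902, and 5 members were lower. With the replicate block and GC correction there were 560, with 2 members called lower, 2 other pathway genes called lower and a median log2 change of the members of -0.11. With median-of-ratios scaling and the replicate block there were 451, with 2 members and 1 other pathway gene lower, a median of -0.040, and 0 members higher, where Aldoa (limma adjusted p = 0.0703) and Slc2a3 (limma adjusted p = 0.0788) were no longer called.

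The sign of 9 members turned from negative to positive, each without passing the threshold except Pkm rescaled to nuclear protein-coding genes (limma adjusted p = 0.0293). Their log2 changes after median-of-ratios scaling (alone or with the replicate block), quantile normalization, rescaling to nuclear protein-coding genes, GC correction (alone or with the replicate block) and median-of-ratios scaling with copies added were, in turn, Ankrd37 0.10, 0.074, 0.12, 0.31 and 0.10, Bnip3 0.24, 0.23, 0.27, 0.19 and 0.23, Bnip3l 0.25, 0.25, 0.28, 0.22 and 0.070, Hif1a 0.22, 0.22, 0.25, 0.14 and 0.22, Higd1a 0.24, 0.22, 0.27, 0.21 and 0.24, Ldhb 0.37, 0.36, 0.40, 0.30 and 0.32, P4ha1 0.33, 0.34, 0.36, 0.31 and 0.33, Pkm 0.33, 0.28, 0.36, 0.25 and 0.35, Slc2a1 0.15, 0.15, 0.18, 0.12 and 0.15. With array weights Ankrd37 was at 0.014 and P4ha1 at 0.021, and rescaled to nuclear protein-coding genes Pfkm was at 0.0073 and Pgam1 at 0.011. With a library left out, the ranges that crossed 0 were Ankrd37 -0.57 to 0.57, Bnip3 -0.53 to 0.46, Bnip3l -0.30 to 0.39, Bnip3l/Bnip3 (log2 ratio) -0.46 to 0.37, Egln1 -0.62 to 0.0063, Gapdh -1.05 to 0.033, Hif1a -0.48 to 0.56, Higd1a -0.42 to 0.44, Hk1 -0.51 to 0.035, Ldhb -0.26 to 0.55, P4ha1 -0.26 to 0.61, Pdk1 -0.91 to 0.025, Pfkm -0.52 to 0.10, Pgam1 -0.64 to 0.12, Pkm -0.15 to 0.36, Slc2a1 -0.38 to 0.32, Vhl -0.74 to 0.080. Over 41 named genes, the settings that left out a library gave the same direction and call in 308 instances, lost a call in 105, gained one in 3 and turned the sign in 76, and the other settings did so in 449, 85, 9 and 67.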
